A study of Mus musculus with 40 samples.

Results

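Mice without Nampt in hepatocytes (HNKO, hepatocyte-specific knockout) were compared with WT mice by RNA-Seq of liver at day 6 of feeding with a purified control diet (PD). The 5 HNKO libraries (numbers 6, 7, 29, 30, and 31) and the 4 WT libraries (numbers 8, 10, 27, and 28) were chosen by the genotype and day in their labels, and they are 9 of the 40 libraries of the series. Each library is from 1 mouse. All 9 mice were female on the C57BL/6JBomTac background, ate a fortified breeding chow after weaning, and were 9 weeks old when PD feeding began. HNKO mice carried floxed Nampt alleles (Nampt fl/fl) and Alb-Cre+/-, and WT mice were floxed littermates without Cre, so that the genotypes differed by Cre and by the deletion it makes. Cre is driven by the albumin promoter, which is active in hepatocytes. Deletion of Nampt was not measured by cell type in these data. RNA was extracted from whole liver tissue, so more cells of a type and more RNA per cell cannot be told apart in any value below. The labels record the 6 days as an age, and the study's methods record them as days on PD.

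NAMPT makes nicotinamide mononucleotide from nicotinamide, the main salvage route to NAD in most tissues. Hepatocytes can also make NAD from tryptophan and from nicotinic acid. NAD carries electrons from fatty acid oxidation to the respiratory chain, and it is consumed by sirtuins, PARP enzymes, and CD38. The injured liver is known for a set of transcriptional programs: hepatocytes secrete acute phase proteins under IL-6 and IL-1, stellate cells lay down collagen, ductal cells expand, and myeloid cells enter from blood.

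The 9 libraries held 16151037 to 34720845 counts, with 21656496 to 26264567 in WT. No pair of libraries of the same group looked like a library deposited more than once, since chi-square per gene was 15.68 or more in these 16 pairs. Library 29 stood apart. Its correlation of log2 CPM with the WT libraries was 0.944 to 0.955, against 0.956 to 0.980 for the other 4 HNKO libraries, and its TMM factor was 1.24 against 0.878 to 1.09 in the other 8 libraries. Library 29 also held the lowest share of counts on mitochondrially encoded genes, 4.07%, against 4.49 to 6.03% in the other HNKO libraries and 6.15 to 7.5% in WT. List counts that changed without this library are given with and without it, and its part in each result was not tested in any other way. The tissue label was checked by Alb, the albumin gene and a defining gene of hepatocytes, which was abundant in all 9 livers and is given below.

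Nampt itself was examined before any other gene, because its transcript checks the genotype labels. Values below are CPM, counts scaled to a common library size with the TMM factors, and ± is the SE of a log2 fold change. Libraries are in the order 8, 10, 27, and 28 for WT and 6, 7, 29, 30, and 31 for HNKO. Nampt (chr12:32819545-32853349, plus strand, GRCm38) was at 155, 136, 63.8, and 63.7 CPM in WT and 51.5, 82, 44.5, 46.8, and 56.1 CPM in HNKO livers. Every HNKO liver was below WT livers 8 and 10, but HNKO liver 7 was above WT livers 27 and 28, so the groups overlapped. Within the libraries numbered 1 to 21 (WT 8 and 10, HNKO 6 and 7), and within those numbered 22 to 41, each HNKO liver was below each WT liver. Counts cover the whole gene and do not separate the deleted exons from the rest. Nampt was lower in HNKO (log2 fold change -0.90 ± 0.24 (SE), adjusted p = 0.0128, edgeR quasi-likelihood test with Benjamini-Hochberg adjustment over 20297 genes). The exact two-sided permutation test of the mean log2 CPM over the 9 livers gave p = 0.06349, where the smallest p that 126 assignments allow is 0.007937. The call was lost without WT liver 8 (-0.64, adjusted p = 0.106), without WT liver 10 (-0.74, adjusted p = 0.0683), and without HNKO liver 29 (-0.80, adjusted p = 0.0639). Within libraries numbered 1 to 21 the difference was -1.16, and within libraries numbered 22 to 41 it was -0.38. These are differences of mean log2 CPM, for which no test was run. With the label series as a covariate the log2 fold change of Nampt at day 6 was -0.81 (adjusted p = 0.00814). The clock genes, whose levels cycle over the day, separated the WT livers in the same way: their summed level was 1718 and 1997 CPM in livers 8 and 10 and 902 and 924 CPM in livers 27 and 28. In HNKO livers it was 1324, 1322, 674, 1076, and 1409.6 CPM. Its part in the Nampt values was not tested.

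Across the transcriptome, 2596 of 20297 tested genes (12.8%) were called at an adjusted p under 0.05. Of these, 1709 (8.42% of tested genes) were higher and 887 (4.37%) were lower in HNKO. The higher genes moved further: 923 of them differed by more than 1 on the log2 scale, against 101 of the lower genes. The 5 HNKO and 4 WT livers did not overlap for 2590 tested genes (12.8%), of which 1640 (8.08%) had HNKO above every WT liver and 950 (4.68%) below. The median difference over all tested genes was -0.01. Without library 29, 1126 genes were called, 909 higher and 217 lower. The count was also 1638 without WT liver 8 and 1666 without WT liver 10. In library 29 the 1709 higher genes lay a median of 1.49 above the WT mean on the log2 CPM scale, against 0.616 to 1.11 in the other 4 HNKO livers. With the label series (livers numbered 1 to 21 or 22 to 41) as a covariate 2999 genes were called, 2588 of them among the 2596.

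**Figure D1:**
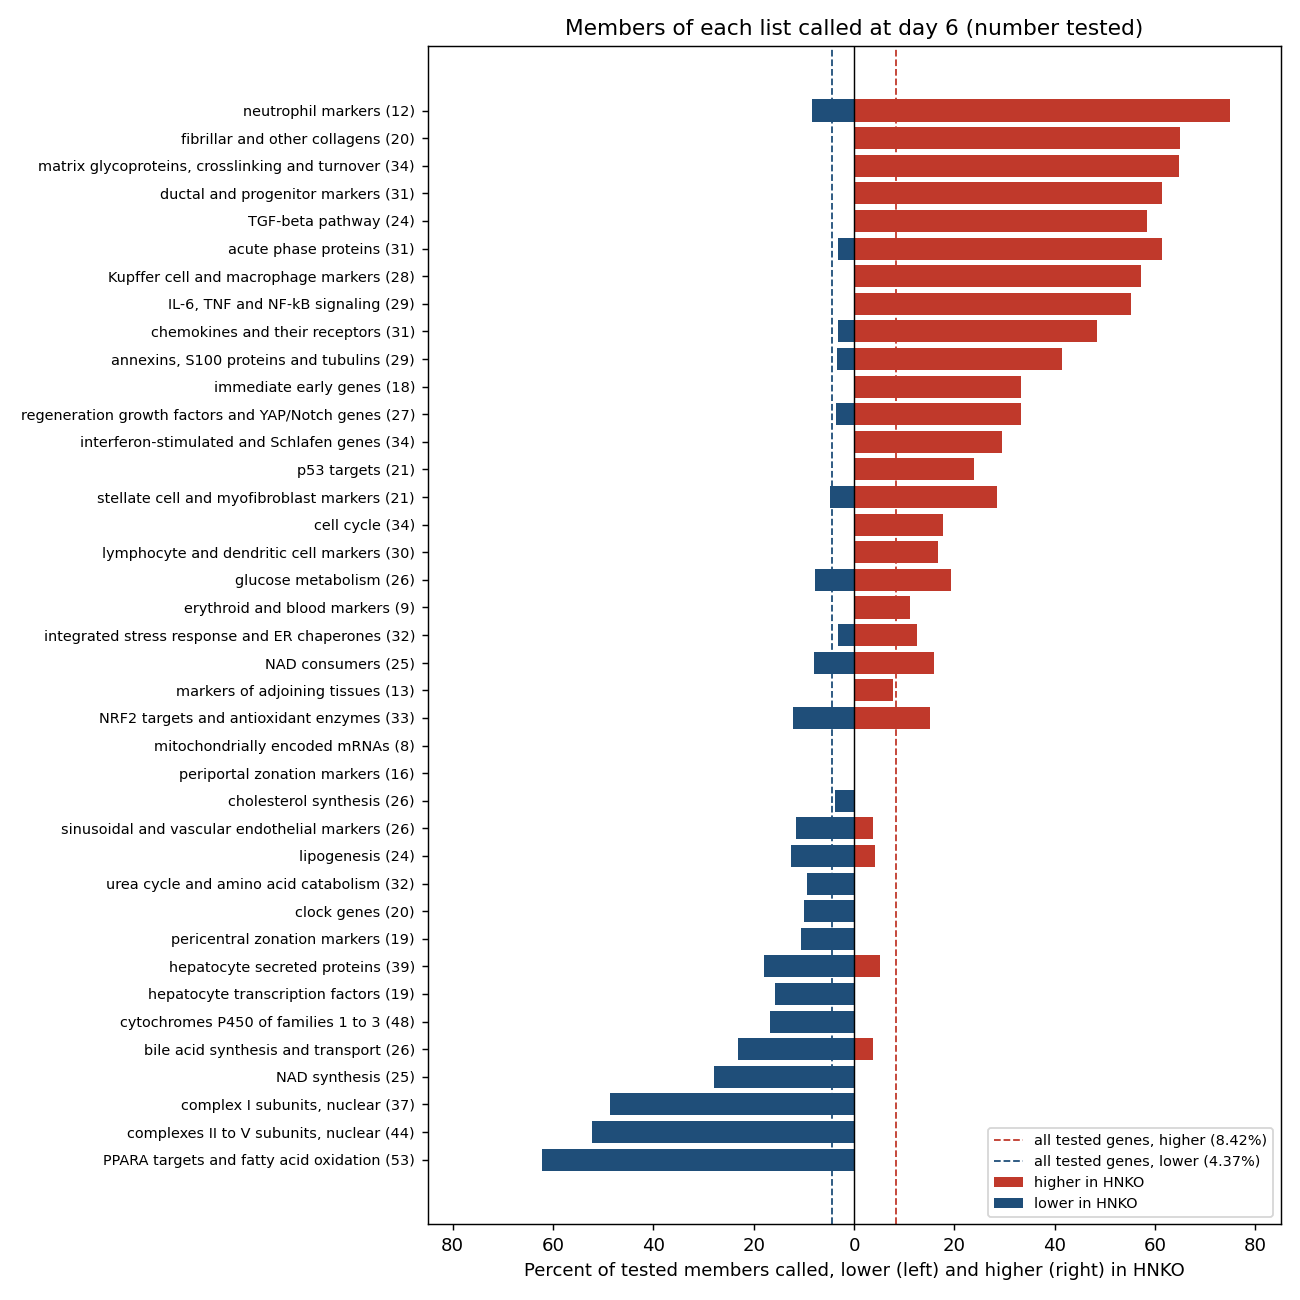
Percent of the tested members of each gene list called higher (right, red) or lower (left, blue) in HNKO than in WT livers at day 6, with the number of members tested in parentheses. Dashed lines mark the shares over all tested genes, 8.42% higher and 4.37% lower. Inflammatory, matrix, and ductal lists extend to the right and the fatty acid oxidation and respiratory chain lists to the left.

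Every called gene of the NAD synthesis list was lower in HNKO livers. Besides enzymes of synthesis, the list holds NAD kinases, which phosphorylate NAD, and genes of nicotinamide handling. Of its 25 tested genes, 0 were called higher and 7 lower, against 8.42% and 4.37% of all tested genes. The lower genes included Nampt and the NAD kinases Nadk and Nadk2. The median log2 fold change of the list was -0.17. Nadk2, the mitochondrial NAD kinase, was at 201, 198, 185, and 199 CPM in WT and 135, 125, 109, 153, and 157 CPM in HNKO livers. All 5 HNKO livers were below all 4 WT livers (log2 fold change -0.53 ± 0.11 (SE), adjusted p = 0.0016). Nmnat1, which completes NAD synthesis in the nucleus, was at 18.8, 19.6, 17.3, and 16.3 CPM in WT and 15.3, 13.9, 10.5, 13.6, and 13.4 CPM in HNKO livers, again without overlap (-0.43 ± 0.10, adjusted p = 0.00275). Nmnat3, its mitochondrial counterpart, was at 15.4, 17.5, 15.1, and 12 CPM in WT and 9.55, 9.93, 8.51, 11.6, and 11.8 CPM in HNKO livers. These groups did not overlap either (-0.55 ± 0.13, adjusted p = 0.00445). Without library 29, or without WT liver 10, the list held 4 lower calls. The Nmnat1 call was lost with only the 9 libraries of day 6 (adjusted p = 0.0522) and the Nmnat3 call with all 40 libraries (adjusted p = 0.091).

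Of 25 genes whose products consume NAD, 4 were higher and 2 lower, where 8.42% of all tested genes were higher and 4.37% lower. Cd38, a surface enzyme that hydrolyses NAD, was at 19.8, 20.3, 24, and 23.5 CPM in WT and 28.6, 26.9, 36.6, 26.6, and 27.8 CPM in HNKO livers. Every HNKO liver was above every WT liver, and library 29 was highest (log2 fold change 0.42 ± 0.11 (SE), adjusted p = 0.0104). Parp8 was also higher without overlap (0.86 ± 0.22, adjusted p = 0.00885). Sirt3, the main mitochondrial deacetylase, was at 73.5, 87, 72.3, and 73.1 CPM in WT and 61.2, 52.5, 34.8, 62.2, and 63.3 CPM in HNKO livers (-0.48 ± 0.13, adjusted p = 0.0119), with the lowest value in library 29. That call was lost without library 29 (adjusted p = 0.0686) and without WT liver 10 (adjusted p = 0.058), and with only the 9 libraries (adjusted p = 0.0984). The Cd38 call was lost with all 40 libraries (adjusted p = 0.0892). Without library 29 the list held 2 higher and 0 lower calls, and without WT liver 28 it held 2 higher and 1 lower. It also held 1 lower call without WT liver 10 or HNKO liver 30.

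Of 31 acute phase genes, 19 were higher and 1 was lower, with a median log2 fold change of 1.04, with 19 higher and 0 lower without library 29. Saa1 and Saa2 encode the serum amyloid A apolipoproteins that the liver releases into plasma in acute inflammation. Steap4 encodes a metalloreductase induced by inflammatory cytokines, and Fga the alpha chain of fibrinogen. The 250 bases before their annotated starts are printed because each holds a match to letters like those that C/EBP or STAT3, known regulators of acute phase promoters, bind. The genes were chosen for that match after their values were seen. The promoter of Saa3, whose difference was also large, held 0 matches to the C/EBP-like letters and is not printed. The sequences are from RefSeq on GRCm38.p6: Saa1 at chr7:46742981-46743230 on the minus strand, Saa2 at chr7:46751583-46751832 on the plus strand, Fga at chr3:83025903-83026152 on the plus strand, and Steap4 at chr5:7960222-7960471 on the plus strand. Capitals mark a match, on either strand, to TTNNGCAAT (C/EBP-like) in Saa1 and Saa2 and to TTCNNNGAA (STAT-like) in Fga and Steap4.
Saa1: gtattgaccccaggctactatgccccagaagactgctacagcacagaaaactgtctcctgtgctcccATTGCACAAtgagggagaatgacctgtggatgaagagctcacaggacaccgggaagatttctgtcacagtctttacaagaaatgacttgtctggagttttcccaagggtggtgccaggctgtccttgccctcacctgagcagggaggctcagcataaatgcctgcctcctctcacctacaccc
Saa2: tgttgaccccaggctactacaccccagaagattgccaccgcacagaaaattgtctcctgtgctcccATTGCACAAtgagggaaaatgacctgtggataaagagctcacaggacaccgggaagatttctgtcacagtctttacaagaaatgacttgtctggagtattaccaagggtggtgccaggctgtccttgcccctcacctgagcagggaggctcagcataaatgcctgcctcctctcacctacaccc
Fga: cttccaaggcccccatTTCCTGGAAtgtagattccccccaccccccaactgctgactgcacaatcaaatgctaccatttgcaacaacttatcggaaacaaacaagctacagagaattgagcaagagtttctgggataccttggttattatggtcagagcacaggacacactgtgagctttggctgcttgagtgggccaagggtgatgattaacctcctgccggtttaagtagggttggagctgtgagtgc
Steap4: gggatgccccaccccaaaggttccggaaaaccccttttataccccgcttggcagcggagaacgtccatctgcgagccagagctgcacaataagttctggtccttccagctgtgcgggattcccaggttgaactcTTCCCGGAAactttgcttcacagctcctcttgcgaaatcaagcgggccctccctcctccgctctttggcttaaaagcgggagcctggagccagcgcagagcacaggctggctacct

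The Saa1 and Saa2 sequences were identical at 94.8% of 251 aligned columns, against 48.2% for Saa1 with Saa3 and 46.0% for Saa1 with Fga. The match started 183 bases before the start of Saa1 and 184 bases before that of Saa2. In Fga it started 234 and in Steap4 116 bases before. Among 32851 RefSeq promoters of the same length, 1.93% held the C/EBP-like letters, and among the 24 tested acute phase genes with an entry 2 did, Saa1 and Saa2. The STAT-like letters were in 7.02% of all promoters and in 7 of the 24, which were Apcs, Fga, Fgb, Hamp, Hamp2, Itih4, and Steap4. Hamp2 was the gene called lower. Of the 15 genes called higher with an entry, 4 held the STAT-like letters (26.7%) and 2 the C/EBP-like letters (13.3%), against 9.57% and 2.51% of 1233 genes called higher in all. An NF-kB-like motif was in 0.356% of all promoters and in 0 of the 24. A match describes the letters of this window only.

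Saa1 was at 29.9, 17.4, 28.2, and 13.1 CPM in WT and 952, 1685, 963, 668, and 1342 CPM in HNKO livers. The lowest HNKO liver was far above the highest WT liver (log2 fold change 5.66 ± 0.67 (SE), adjusted p = 2.93e-06). Saa2 behaved likewise, at 19.6, 11.6, 15.4, and 9.77 CPM in WT and 571, 1577, 682, 591, and 1188 CPM in HNKO livers (6.03 ± 0.69, adjusted p = 2.2e-06). Part of the sequence of this pair cannot be separated by short reads, since 30.91% of the 51-base stretches of Saa1 and 29.46% of those of Saa2 occur in other genes. Saa3, which is expressed outside hepatocytes too, was at 2.39, 2.21, 1.66, and 1.26 CPM in WT and 25.5, 9.18, 57.5, 38, and 31.8 CPM in HNKO livers. Here library 7 was the lowest HNKO liver, although it held the highest values of Saa1 and Saa2 (4.11 ± 0.53, adjusted p = 8.67e-06). Lcn2, an iron-siderophore binding protein, was at 27.1, 10.5, 19.98, and 11.5 CPM in WT and 372, 499, 654, 326, and 381 CPM in HNKO livers, with no overlap (4.69 ± 0.68, adjusted p = 3.87e-05).

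Hpx, which binds heme, was at 3468, 3371, 3728, and 3484 CPM in WT and 7575, 10599, 11569, 8066, and 8182 CPM in HNKO livers (log2 fold change 1.39 ± 0.18 (SE), adjusted p = 8.67e-06). Hp, which binds hemoglobin, was at 1588, 1377, 1654, and 1436 CPM in WT and 3594, 4568, 6081, 4291, and 3760.4 CPM in HNKO livers (1.56 ± 0.21, adjusted p = 1.47e-05). In both genes the HNKO livers lay above every WT liver. Steap4 was at 124, 129, 118, and 122 CPM in WT and 249.9, 344, 675, 513, and 355 CPM in HNKO livers, with library 29 highest (1.80 ± 0.24, adjusted p = 1.12e-05). Lrg1, a leucine-rich glycoprotein of plasma, was at 84.7, 73.7, 71.3, and 70.6 CPM in WT and 295, 472, 359, 247, and 277 CPM in HNKO livers (2.14 ± 0.27, adjusted p = 6.75e-06). Neither gene showed any overlap between genotypes. The abundant members C3, the central complement component (0.47 ± 0.20, adjusted p = 0.113), and Fgb, the fibrinogen beta chain (0.56 ± 0.20, adjusted p = 0.0569), did not pass the test.

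Cd14, a receptor for bacterial lipopolysaccharide, was at 2.82, 2.36, 4.39, and 2.23 CPM in WT and 11.4, 23.4, 90.2, 45.1, and 19.6 CPM in HNKO livers (log2 fold change 3.69 ± 0.57 (SE), adjusted p = 9.09e-05). Its HNKO values spread widely, with library 29 highest, but none reached the WT range. Orm2, an orosomucoid, was higher by 4.12 on the log2 scale (0.63 SE, adjusted p = 8.02e-05), and 22.21% of its 51-base stretches are shared, mostly with Orm1. Itih4, an inter-alpha-trypsin inhibitor chain, was at 2599, 2669, 2709.8, and 2517 CPM in WT and 5003, 4849.8, 3176, 4001, and 4421 CPM in HNKO livers (0.71 ± 0.18, adjusted p = 0.00864), and library 29 was the lowest of the HNKO livers. Fga was at 6994, 5695, 5691, and 6802 CPM in WT and 11460.0, 10876, 7226, 9026, and 9184 CPM in HNKO livers, without overlap but with a small difference (0.60 ± 0.19, adjusted p = 0.0281). Its call was lost without WT liver 10 (adjusted p = 0.0873), WT liver 27 (0.0765), HNKO liver 6 (0.0613), or HNKO liver 7 (0.0667), with only the 9 libraries (0.0939), with all 40 (0.0512), and without the filter (0.0518). The single gene called lower was Hamp2, a paralog of the iron hormone hepcidin, at 341, 279, 433, and 367 CPM in WT and 225, 60.7, 19.9, 102, and 182 CPM in HNKO livers (-1.59 ± 0.47, adjusted p = 0.0222). It was low above all in library 29, and its adjusted p was 0.0767 without that liver, 0.063 without liver 7, 0.0507 without liver 30, 0.054 without WT liver 27, and 0.0928 with only the 9 libraries.

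**Figure D2:**
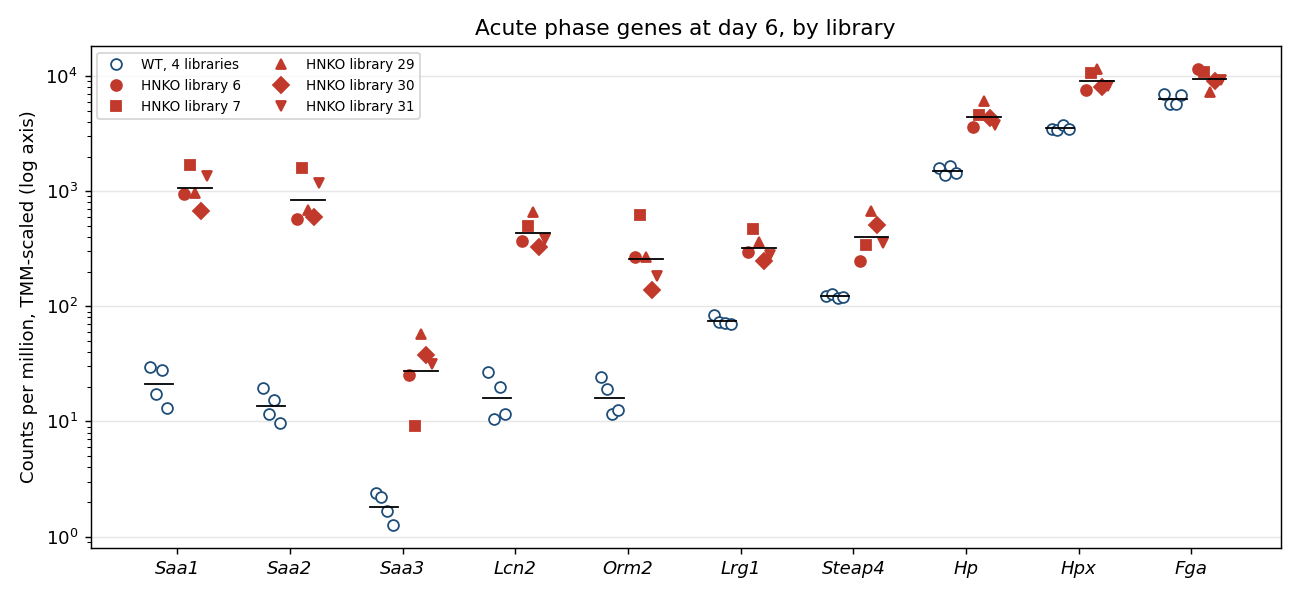
TMM-scaled CPM (log axis) of acute phase genes in each liver of day 6, with open symbols for the 4 WT livers, filled symbols for the 5 HNKO livers, and horizontal lines at the geometric means. In Saa1 the WT livers sit between 13.1 and 29.9 CPM and the HNKO livers between 668 and 1685 CPM.

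In the IL-6, TNF, and NF-kB list 16 of 29 genes were higher and 0 lower (median 0.57). The higher count was 12 without library 29, and 11 to 17 when each library was left out. Il1r1, the signaling receptor of IL-1, was at 41.6, 31.6, 28.1, and 30.5 CPM in WT and 77.8, 81, 70.7, 102, and 71.3 CPM in HNKO livers. The HNKO livers were all above the WT livers, and library 29 was the lowest of them (log2 fold change 1.29 ± 0.17 (SE), adjusted p = 8.67e-06). Osmr, the oncostatin M receptor subunit, was at 8.02, 8.72, 8.33, and 8.13 CPM in WT and 14.1, 31.5, 30.2, 22.5, and 14.3 CPM in HNKO livers (1.44 ± 0.22, adjusted p = 8.36e-05). Il6st, the shared receptor subunit gp130, was at 305, 339, 288, and 320.0 CPM in WT and 439.7, 461, 432, 409, and 403 CPM in HNKO livers (0.46 ± 0.10, adjusted p = 0.00177). Neither receptor overlapped between genotypes.

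Downstream of these receptors, Stat3 was at 96.8, 118, 128, and 143 CPM in WT and 219, 211, 194, 213, and 199 CPM in HNKO livers (log2 fold change 0.77 ± 0.16 (SE), adjusted p = 0.00144). Socs3, a feedback inhibitor of STAT3 signaling, was at 13.4, 17.1, 14.1, and 14.9 CPM in WT and 85.9, 45.5, 47, 65.4, and 94.1 CPM in HNKO livers (2.19 ± 0.47, adjusted p = 0.002). Both were without overlap, and livers 6 and 31 held the most Socs3. Icam1, an adhesion molecule induced by NF-kB, was at 13.1, 12.4, 13.9, and 14.1 CPM in WT and 23.9, 35.6, 60.7, 44, and 28.4 CPM in HNKO livers (1.52 ± 0.24, adjusted p = 0.000105). Tnf was scarce, at 0.347, 0.205, 0.292, and 0.253 CPM in WT and 0.546, 1.13, 2.35, 2.05, and 1.1 CPM in HNKO livers, yet higher in every HNKO liver (2.37 ± 0.47, adjusted p = 0.00104). Il17ra, a subunit of the IL-17 receptor, was at 21, 20.3, 24.2, and 21.1 CPM in WT and 28.3, 44.3, 38.9, 40.3, and 34.7 CPM in HNKO livers (0.78 ± 0.10, adjusted p = 9.3e-06).

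Interferon-stimulated genes and Schlafen genes had 10 of 34 members higher and 0 lower, but a median of only 0.19. Members with the smallest p-values were the Schlafen genes Slfn4, Slfn2, and Slfn1. Slfn4, a myeloid Schlafen gene, was at 0.434, 0.564, 0.585, and 0.674 CPM in WT and 4.87, 4.57, 14.1, 15.7, and 7.12 CPM in HNKO livers (log2 fold change 4.03 ± 0.46 (SE), adjusted p = 2.2e-06). Libraries 29 and 30 were the highest, and no HNKO liver overlapped WT. Slfn4 shares 10.42% of its 51-base stretches, in part with Slfn3. Slfn1 (2.01 ± 0.39, adjusted p = 0.000762) and Slfn2 (1.11 ± 0.21, adjusted p = 0.000576) were higher too, and the Slfn2 call was lost with all 40 libraries (adjusted p = 0.101). The list held 4 higher calls without library 29, 5 without WT liver 8, and 6 without any of WT livers 10, 27, or 28.

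Among chemokines, which recruit leukocytes, and their receptors, 15 of 31 tested genes were higher and 1 lower (median 1.28), with 11 higher and 0 lower without library 29. With at least 10 counts in every day 6 library 21 were tested, 9 of them higher and 0 lower (median 0.81). Cxcl1, a neutrophil attractant, was at 7.37, 13.2, 5.85, and 7.88 CPM in WT and 51.2, 42, 50.7, 44.4, and 65.9 CPM in HNKO livers (log2 fold change 2.57 ± 0.53 (SE), adjusted p = 0.00157). Ccl2, which attracts monocytes, was at 0.347, 0.718, 0.926, and 0.548 CPM in WT and 2.73, 3.0, 14.6, 5.98, and 3.77 CPM in HNKO livers (3.26 ± 0.71, adjusted p = 0.0025). Its receptor Ccr2 was at 2.34, 2.16, 3.7, and 3.24 CPM in WT and 10.4, 20.2, 56.3, 26.9, and 15.6 CPM in HNKO livers. Every HNKO liver was above every WT liver, and library 29 was the highest (3.18 ± 0.52, adjusted p = 0.000156). Ccr1, another receptor of monocytes and neutrophils, was at 0, 0.257, 0.0975, and 0.337 CPM in WT and 1.55, 2.9, 8.13, 5.12, and 2.48 CPM in HNKO livers (4.52 ± 0.68, adjusted p = 7.66e-05). The chemokine Ccl6 of macrophages (1.47 ± 0.22, adjusted p = 6.31e-05), the neutrophil attractant Cxcl2 (5.27 ± 1.04, adjusted p = 0.000972), and the membrane chemokine Cx3cl1 (1.95 ± 0.38, adjusted p = 0.000922) were higher without overlap.

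Of 28 macrophage genes 16 were higher and 0 lower (median 0.85), and 11 without library 29, and the summed level of the list was 1032 to 1289 CPM in WT and 1342 to 2036 CPM in HNKO. Clec4f was at 178, 144, 207, and 177 CPM in WT and 225, 168, 210.1, 228, and 188 CPM in HNKO livers, and this Kupffer cell marker did not pass the test, with groups that overlapped (log2 fold change 0.21 ± 0.16 (SE), adjusted p = 0.45). Lyz2, lysozyme of myeloid cells, was at 65.8, 66.9, 79.3, and 67.6 CPM in WT and 146, 130.4, 274, 146, and 104 CPM in HNKO livers (1.19 ± 0.24, adjusted p = 0.00111). Gpnmb, a glycoprotein of lipid-laden and phagocytic macrophages, was at 0.434, 0.462, 0.244, and 0.126 CPM in WT and 1.91, 9.14, 22.4, 6.6, and 2.73 CPM in HNKO livers (4.76 ± 0.83, adjusted p = 0.000304). The spread among HNKO livers was wide for Gpnmb, with library 29 highest and library 6 lowest. Cx3cr1 (2.86 ± 0.54, adjusted p = 0.000641) and Chil3 (4.79 ± 0.73, adjusted p = 8.1e-05) were higher in each HNKO liver than in any WT liver, as were Lgals3, galectin 3 (1.62 ± 0.28, adjusted p = 0.000257), and Fcgr1, an Fc receptor (1.09 ± 0.21, adjusted p = 0.000687), whose call was lost with all 40 libraries (adjusted p = 0.102). Chil3 shares 26.21% of its 51-base stretches, in part with Chil4, and Lyz2 shares 14.77% with Lyz1.

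Of 18 neutrophil markers 12 were tested, 8 of them with under 10 counts in 1 or more day 6 libraries, and 9 were higher and 1 lower. With at least 10 counts in every day 6 library 4 remained, 2 higher and 1 lower. Without library 29, 7 of 11 were higher and 0 lower. S100a8 was at 0.824, 0.154, 0.39, and 0.211 CPM in WT and 2.05, 3.79, 8.39, 6.49, and 2.59 CPM in HNKO livers (log2 fold change 3.53 ± 0.63 (SE), adjusted p = 0.000395). S100a9, its partner in calprotectin, was at 0.52, 0.872, 0.634, and 0.463 CPM in WT and 3.37, 5.39, 13.7, 8.93, and 3.52 CPM in HNKO livers (3.49 ± 0.56, adjusted p = 0.000134). Cxcr2, the receptor for Cxcl1, was at 0.304, 0.257, 0, and 0.0421 CPM in WT and 1.55, 1.91, 5.06, 4.5, and 1.38 CPM in HNKO livers (4.22 ± 0.68, adjusted p = 0.000155). All of these were scarce in WT livers and did not overlap. Csf3r, the G-CSF receptor (2.09 ± 0.33, adjusted p = 9.47e-05), and Trem1, an activating receptor (4.06 ± 0.86, adjusted p = 0.00199), were higher too. The summed level of the list was 333 to 420 CPM in WT and 310 to 449 CPM in HNKO, most of it from Wfdc21, which did not pass the test (0.21 ± 0.20, adjusted p = 0.563). Of the genes that were too scarce to test, Ly6g, a defining neutrophil marker, had 0 counts in WT and 2 in HNKO libraries together, and Mpo had 0 and 11. The lower member was G0s2, a lipase inhibitor that hepatocytes express too (-1.38 ± 0.40, adjusted p = 0.0194), whose groups overlapped and whose call was lost without library 29 (adjusted p = 0.0738). It was also lost without WT liver 10 (0.071), WT liver 8 (0.0528), and HNKO liver 30 (0.0584).

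Prtn3, the gene of proteinase 3 of neutrophil granules, was at 0.13, 0, 0.0975, and 0.126 CPM in WT and 6.41, 11.2, 8.53, 3.81, and 3.88 CPM in HNKO livers (6.14 ± 0.80, adjusted p = 8.67e-06). Libraries 7 and 29 were the highest, which was not the order seen for S100a8. Ptprc, the pan-leukocyte CD45, was at 34.6, 36.6, 43.7, and 36.1 CPM in WT and 59.1, 76, 118, 79.8, and 55.6 CPM in HNKO livers (log2 fold change 1.04 ± 0.20 (SE), adjusted p = 0.000959). Lymphocyte and dendritic cell markers had 5 of 30 higher and 0 lower. They had 2 higher without library 29, 3 without WT livers 8, 10, or 28 or HNKO liver 7, and 8 without HNKO livers 6 or 31. Itgax, the CD11c integrin, was among them (2.18 ± 0.43, adjusted p = 0.00102). Endothelial markers had 1 of 26 higher, Cd34 (1.87 ± 0.49, adjusted p = 0.0101), and 3 lower, against 8.42% and 4.37% of all tested genes. The lower count was 2 without library 29 and 5 without HNKO liver 6, and the higher count 2 without WT liver 27 or HNKO liver 31. Oit3 (-0.51 ± 0.10, adjusted p = 0.000934) and Ehd3 (-0.65 ± 0.14, adjusted p = 0.00203), both markers of the sinusoidal endothelium, were lower without overlap.

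**Figure D3:**
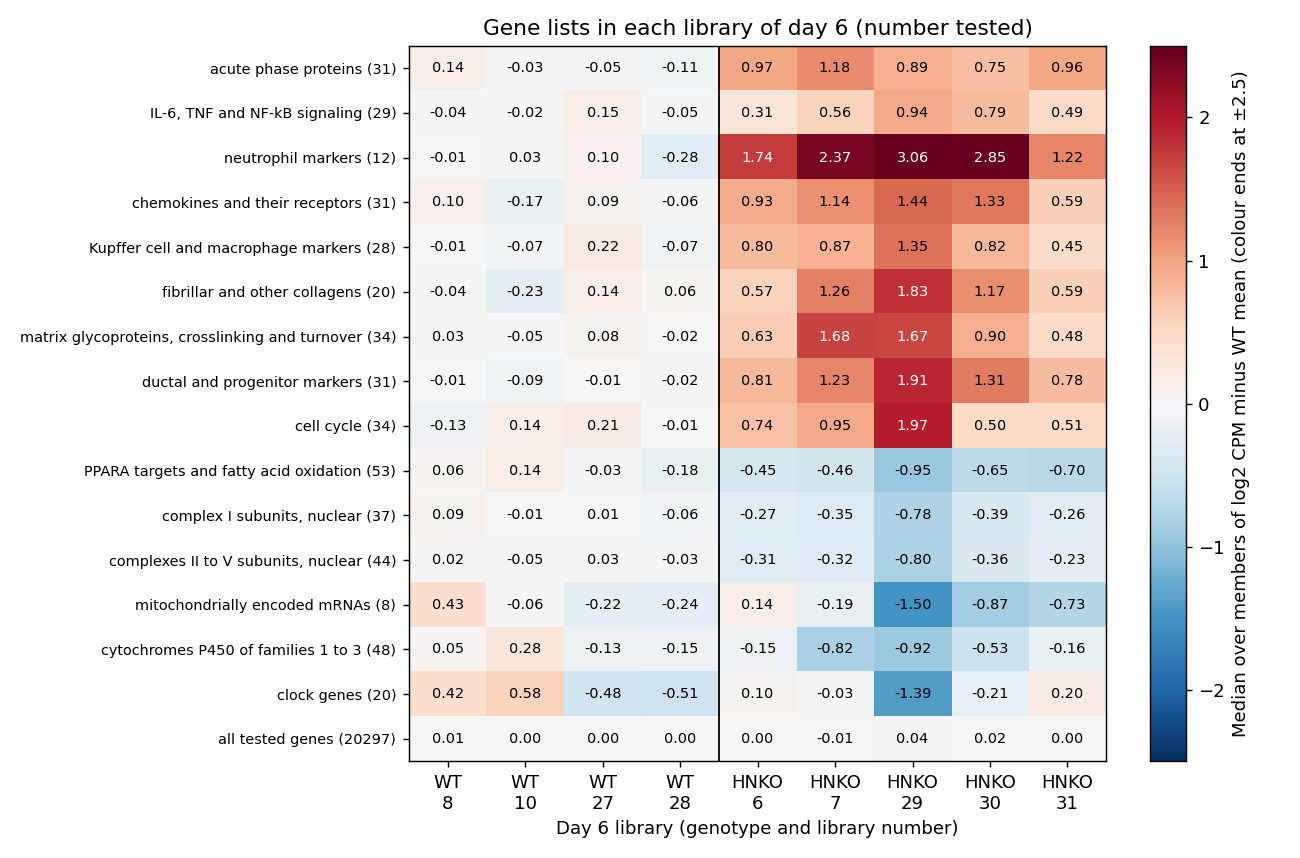
Median over the members of each list of log2 CPM minus the WT mean, in each library of day 6, with the 4 WT libraries to the left of the black line. Colour ends at ±2.5. Library 29 has the strongest colour in most lists, while the acute phase row is similar across HNKO livers, from 0.748 to 1.18.

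Of 20 collagens, 13 were higher and 0 lower (median 1.12), and 10 without library 29. Col1a1, the main chain of scar collagen, was at 4.12, 3.13, 8.14, and 5.31 CPM in WT and 28, 86.9, 189, 58.4, and 57.2 CPM in HNKO livers (log2 fold change 4.02 ± 0.67 (SE), adjusted p = 0.000197). Col3a1, its partner in reticular fibers, was at 44.2, 43.5, 53.3, and 50.7 CPM in WT and 123, 398, 583, 259, and 153 CPM in HNKO livers (2.66 ± 0.52, adjusted p = 0.000906). Liver 6 held the lowest and library 29 the highest HNKO value of both, and neither gene overlapped between genotypes. Col1a2 (2.46 ± 0.46, adjusted p = 0.000651) and Col5a2 (2.23 ± 0.35, adjusted p = 9.09e-05) were also higher without overlap, and Col4a1 of the basement membrane by less (1.17 ± 0.24, adjusted p = 0.00129). For Col5a2 liver 31 held the lowest and liver 7 the highest HNKO value.

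Matrix glycoproteins and enzymes of matrix turnover had 22 of 34 genes higher and 0 lower (median 1.31), and 14 without library 29. Timp1, the inhibitor of matrix metalloproteinases, was at 0.0867, 0.103, 0, and 0.0421 CPM in WT and 2.09, 4.78, 9.69, 4.67, and 3.18 CPM in HNKO livers (log2 fold change 6.31 ± 0.90 (SE), adjusted p = 2.96e-05). It was almost undetected in WT livers. Thbs1, which activates latent TGF-beta, was at 1.43, 2.31, 5.9, and 2.49 CPM in WT and 18, 14.6, 40.5, 26.4, and 19.4 CPM in HNKO livers (2.98 ± 0.44, adjusted p = 5.44e-05). Tnc, tenascin C, was at 1.73, 2.26, 1.46, and 2.49 CPM in WT and 6.91, 19.3, 28.9, 25.2, and 8.83 CPM in HNKO livers (3.16 ± 0.50, adjusted p = 0.000134). Both were without overlap. Vcan, the proteoglycan versican (3.61 ± 0.64, adjusted p = 0.000354), Mmp9, a gelatinase (2.26 ± 0.40, adjusted p = 0.000301), and Fbn1, fibrillin 1 (1.46 ± 0.27, adjusted p = 0.000527), were higher likewise.

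The TGF-beta pathway had 14 of 24 genes higher and 0 lower (median 0.50), but its count depended on single livers: 6 without HNKO liver 29, 7 without WT liver 10, 8 without WT liver 28, 8 without HNKO liver 7, and 9 without WT liver 8. Tgfbi, a matrix protein named for its induction by TGF-beta, was at 53.3, 67.3, 59.3, and 65.5 CPM in WT and 102, 101, 136, 124, and 97.3 CPM in HNKO livers (log2 fold change 0.87 ± 0.12 (SE), adjusted p = 3.09e-05). Tgfb2 was at 0.867, 1.13, 0.682, and 0.716 CPM in WT and 3.68, 3.72, 3.75, 2.22, and 2.25 CPM in HNKO livers (1.88 ± 0.42, adjusted p = 0.00307), and Itgb8, an integrin that activates TGF-beta, was higher with little spread (1.47 ± 0.29, adjusted p = 0.00102).

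Stellate cell and myofibroblast markers had 6 of 21 genes higher and 1 lower, and 4 and 0 without library 29. Over all tested genes the shares were 8.42% and 4.37%. The lower member was Ecm1, which was among the most abundant genes of the list. The summed level of the list overlapped between genotypes, at 564 to 652 CPM in WT and 577 to 720 CPM in HNKO. Vim, vimentin of mesenchymal cells, was at 20.4, 22.3, 22.6, and 20.3 CPM in WT and 36.8, 79.5, 103, 58.6, and 35.1 CPM in HNKO livers (log2 fold change 1.55 ± 0.29 (SE), adjusted p = 0.000641). Pdgfrb, the growth factor receptor of stellate cells, was at 12.6, 12.5, 15.9, and 15.6 CPM in WT and 22, 34.6, 42.5, 30.6, and 22.4 CPM in HNKO livers (1.11 ± 0.25, adjusted p = 0.00298). Both were higher in all HNKO livers, and so was Cygb, cytoglobin of quiescent stellate cells (1.31 ± 0.30, adjusted p = 0.00371). Acta2, the smooth muscle actin that marks myofibroblasts, was at 2.43, 1.08, 5.65, and 3.08 CPM in WT and 8.59, 21.6, 16.9, 7.57, and 4.11 CPM in HNKO livers, and the groups overlapped (1.95 ± 0.68, adjusted p = 0.0539).

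Ductal and progenitor markers were higher in 19 of 31 tested genes and lower in 0 (median 1.38), with 14 higher without library 29. With at least 10 counts in every day 6 library 12 of 20 were higher (median 0.93). Spp1, osteopontin, which ductal cells and macrophages make, was at 37.1, 28.7, 33, and 40.4 CPM in WT and 152, 195, 728, 284, and 264 CPM in HNKO livers (log2 fold change 3.22 ± 0.40 (SE), adjusted p = 6.75e-06). Cdh6, a cadherin of ductal progenitors, was at 0.347, 0.359, 0.78, and 0.295 CPM in WT and 3.18, 3.0, 4.24, 3.19, and 2.45 CPM in HNKO livers (2.85 ± 0.40, adjusted p = 2.38e-05). Both were highest in library 29. Cftr, the chloride channel of bile ducts, was at 0.217, 0.308, 0.195, and 0.295 CPM in WT and 1.32, 0.819, 2.4, 3.07, and 1.46 CPM in HNKO livers (2.81 ± 0.46, adjusted p = 0.000163). Bicc1, an RNA-binding protein of ductal epithelium, was also higher (1.82 ± 0.31, adjusted p = 0.000285), and so were Krt8 (1.29 ± 0.24, adjusted p = 0.000547) and Krt18 (1.04 ± 0.20, adjusted p = 0.000871), the keratins that hepatocytes and ductal cells share. Of the 51-base stretches, 26.73% are shared for Krt8, with its pseudogene, and 11.46% for Spp1.

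Calls in the cell cycle list depended on single livers. Of 34 genes, 33 had a positive difference and 6 were called higher (median 1.07), and 0 were called without HNKO liver 29, WT liver 8, or WT liver 10. The count was 1 without WT liver 28 and 3 without WT liver 27 or HNKO liver 7. Top2a, a topoisomerase of dividing cells, was at 2.0, 4.93, 6.04, and 4.89 CPM in WT and 10.5, 10.6, 31.2, 8.25, and 9.09 CPM in HNKO livers (log2 fold change 1.65 ± 0.55 (SE), adjusted p = 0.0418). Its adjusted p without library 29 was 0.238, and the call was also lost without WT livers 8 (0.144), 10 (0.0832), 27 (0.054), or 28 (0.0746), with all 40 libraries (0.0835), and with robust estimation (0.0538). Mcm5, a helicase subunit of DNA replication, was higher (1.28 ± 0.37, adjusted p = 0.0195), with an adjusted p of 0.105 without library 29, 0.0775 without WT liver 8, and 0.0508 without WT liver 10. Mki67, the proliferation antigen, was at 5.86, 9.49, 12.7, and 7.79 CPM in WT and 22.3, 19.6, 47.1, 13.4, and 14.1 CPM in HNKO livers, without overlap but short of the threshold (1.39 ± 0.57, adjusted p = 0.109).

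In the other direction, PPARA targets and fatty acid oxidation genes made up the longest set of lower genes among the lists. PPARA is the nuclear receptor that drives peroxisomal and mitochondrial fatty acid oxidation. Of 53 tested genes, 0 were higher and 33 lower (median -0.60), and 18 were lower without library 29. Cyp4a14, a fatty acid omega-hydroxylase and a sensitive PPARA target, was at 340.4, 562, 620.5, and 366 CPM in WT and 40.5, 151, 44.2, 42.2, and 24 CPM in HNKO livers (log2 fold change -2.97 ± 0.62 (SE), adjusted p = 0.00162). Cyp4a10, its neighbour in the same cluster, was at 334, 556, 461, and 328 CPM in WT and 67.5, 129, 31.5, 47.1, and 32.9 CPM in HNKO livers (-2.77 ± 0.51, adjusted p = 0.000568), with 29.25% of its 51-base stretches shared with related genes. Liver 7 held the highest HNKO value of both, still below every WT liver.

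Ehhadh, the peroxisomal bifunctional enzyme, was at 370.2, 427, 629.9, and 479.6 CPM in WT and 205, 222, 188, 176, and 169 CPM in HNKO livers (log2 fold change -1.31 ± 0.20 (SE), adjusted p = 7.66e-05). Acaa1b, the peroxisomal thiolase, was at 535, 579.7, 628, and 479 CPM in WT and 215, 274, 128, 207, and 163 CPM in HNKO livers (-1.49 ± 0.23, adjusted p = 8.36e-05), and it shares 30.13% of its 51-base stretches, mostly with Acaa1a. Abcd3, a peroxisomal fatty acid transporter, was at 889, 773, 789.9, and 738 CPM in WT and 483, 408, 303, 481, and 454 CPM in HNKO livers (-0.91 ± 0.15, adjusted p = 0.000246). The HNKO livers were below every WT liver for each of these genes. Aldh3a2, a fatty aldehyde dehydrogenase, was lower as well (-1.09 ± 0.18, adjusted p = 0.000243).

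Among mitochondrial enzymes, Eci1, an enoyl-CoA isomerase, was at 95.6, 97.4, 91.6, and 88.7 CPM in WT and 53.2, 52.9, 42.8, 54.5, and 52.2 CPM in HNKO livers (log2 fold change -0.87 ± 0.16 (SE), adjusted p = 0.000395). Etfdh, which passes electrons from fatty acid oxidation to ubiquinone, was at 339.6, 352, 301, and 299 CPM in WT and 238, 229, 166, 188, and 202 CPM in HNKO livers (-0.66 ± 0.12, adjusted p = 0.000473). Neither overlapped between genotypes. Ppara itself was at 242, 299, 215, and 232 CPM in WT and 219, 214, 109, 219.7, and 221 CPM in HNKO livers and did not pass the test (-0.33 ± 0.19, adjusted p = 0.283), with 4 HNKO livers close together and library 29 far below them.

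**Figure D4:**
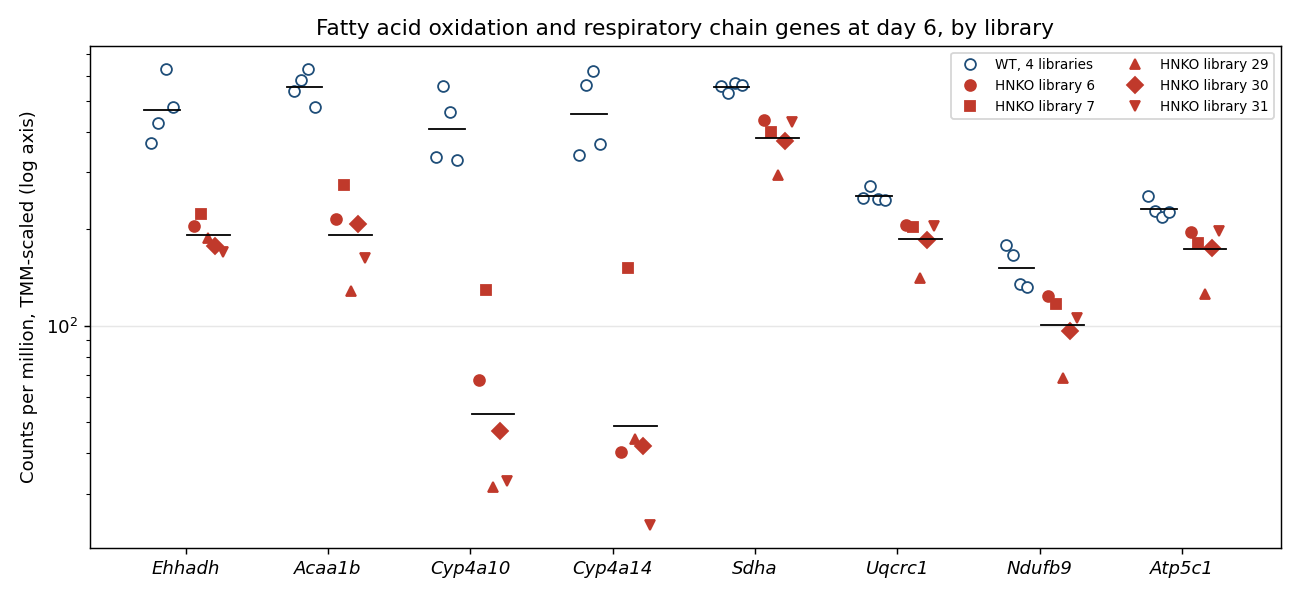
TMM-scaled CPM (log axis) of fatty acid oxidation and respiratory chain genes in each liver of day 6, with open symbols for WT, filled symbols for HNKO, and horizontal lines at the geometric means. Cyp4a14 lies between 340.4 and 620.5 CPM in WT and between 24 and 151 CPM in HNKO livers.

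Of 37 nuclear genes for subunits of complex I of the respiratory chain, 18 were lower and 0 higher (median -0.39), and the difference was negative for all 37. Of 44 subunits of complexes II to V, 23 were lower and 0 higher (median -0.39). These counts depended on library 29: without it 2 and 3 genes were called, with medians of -0.30 and -0.29. They were 8 and 8 without WT liver 8 and 11 and 11 without HNKO liver 30, and for complexes II to V 15 without WT liver 10. Sdha, the catalytic subunit of complex II, was at 556, 529, 567, and 562 CPM in WT and 436, 401, 294, 376, and 429 CPM in HNKO livers (log2 fold change -0.51 ± 0.10 (SE), adjusted p = 0.000584). Uqcrc1 of complex III was at 249, 272, 248, and 246 CPM in WT and 205, 203, 141, 185, and 204 CPM in HNKO livers (-0.43 ± 0.09, adjusted p = 0.00238), and Ndufb9 of complex I was at 178, 166, 135, and 132 CPM in WT and 124, 117, 68.7, 96.1, and 105 CPM in HNKO livers (-0.58 ± 0.14, adjusted p = 0.00462). In each of these genes the 5 HNKO livers were below the 4 WT livers and library 29 was the lowest. Ndufa10 of complex I was lower in the same way (-0.44 ± 0.10, adjusted p = 0.00485). With only the 9 libraries of day 6 the calls of Ndufa10 (adjusted p = 0.0928), Ndufb9 (0.0642), and Uqcrc1 (0.061) were lost. Ndufb9 shares 15.51% of its 51-base stretches with another gene.

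Cox6c of complex IV (-0.45 ± 0.12, adjusted p = 0.00906) and Atp5c1 of ATP synthase (-0.40 ± 0.11, adjusted p = 0.01) were lower too, and lost their calls without library 29 (adjusted p = 0.0634 and 0.0693), and Cox6c also without WT liver 8 (0.052). With only the 9 libraries their adjusted p were 0.0755 and 0.0997. Of 8 tested mitochondrially encoded mRNAs, 0 were called (median -0.57). mt-Co1, a complex IV subunit, was at 20650.0, 20680.0, 15162, and 14576 CPM in WT and 17545, 14343, 6505, 9045, and 11269 CPM in HNKO livers, with overlap (-0.60 ± 0.23, adjusted p = 0.0882). Its reads are shared in part with nuclear copies.

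Cytochromes P450 of families 1 to 3 had 8 of 48 genes lower and 0 higher (median -0.59), against 4.37% and 8.42% of all tested genes, and 5 lower without library 29. Cyp2b9 was at 669, 916, 669, and 698 CPM in WT and 459, 318, 157, 384, and 443 CPM in HNKO livers (log2 fold change -1.07 ± 0.25 (SE), adjusted p = 0.00434). Cyp2c37 was at 301, 607, 443, and 498 CPM in WT and 176, 82.5, 108, 222, and 220.1 CPM in HNKO livers (-1.52 ± 0.39, adjusted p = 0.00945), with 29.26% of its stretches shared with related genes. Nr1i3, the xenobiotic receptor CAR that drives Cyp2b and Cyp2c genes, was at 126, 167, 76.6, and 65.5 CPM in WT and 52.6, 50.3, 31.5, 54.8, and 46.8 CPM in HNKO livers (-1.21 ± 0.30, adjusted p = 0.00756). All were without overlap, like Cyp2c29 (-1.05 ± 0.26, adjusted p = 0.00757) and Cyp2d22 (-0.67 ± 0.14, adjusted p = 0.00172), and the Nr1i3 call was lost without WT liver 10 (adjusted p = 0.0606). Hepatocyte transcription factors had 3 of 19 lower, 1 without library 29 or WT liver 10, and 5 without HNKO liver 31.

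Secreted hepatocyte proteins had 7 of 39 genes lower and 2 higher, against 4.37% and 8.42% of all tested genes, with 2 lower without library 29, 4 without WT liver 8, and 11 without HNKO liver 6. The complement component C8a was at 239.5, 237, 136, and 151 CPM in WT and 796, 858, 869, 592, and 747 CPM in HNKO livers (log2 fold change 2.02 ± 0.29 (SE), adjusted p = 3.3e-05), and C9 of the same complex was higher as well (1.02 ± 0.27, adjusted p = 0.01). Apoa2, an apolipoprotein of high density lipoprotein, was at 5944, 7064, 5046, and 4918 CPM in WT and 4773, 3357, 2042, 3129, and 3505 CPM in HNKO livers (-0.77 ± 0.18, adjusted p = 0.00368), and Pon1, paraoxonase, was lower too (-0.83 ± 0.21, adjusted p = 0.00737). Alb was at 99208, 102970.0, 97103, and 90638 CPM in WT and 77943, 62428, 42695, 61549, and 61082 CPM in HNKO livers, lower without overlap (-0.67 ± 0.18, adjusted p = 0.0138), with an adjusted p of 0.0669 without library 29, 0.216 with the edgeR 4 computation, 0.18 with only the 9 libraries of day 6, and 0.0577 without the filter. With only the 9 libraries the calls of Apoa2 (0.0761) and Pon1 (0.0531) were lost too. Bile acid genes had 6 of 26 lower and 1 higher, with 1 lower without HNKO livers 29 or 7 and 2 without WT livers 8 or 10. Akr1d1, the steroid reductase of bile acid synthesis, was at 340.1, 359.9, 335, and 310.1 CPM in WT and 217, 153, 99.8, 179, and 234 CPM in HNKO livers (-0.93 ± 0.20, adjusted p = 0.00193). Slc10a2, the bile acid transporter of ductal cells, was the higher member (1.68 ± 0.44, adjusted p = 0.0106).

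The counts of further metabolic lists stand against 8.42% of all tested genes higher and 4.37% lower. Of 24 lipogenic genes 1 was higher and 3 lower, or 1 lower without WT liver 27 or HNKO livers 7 or 29, with 0 higher without library 29. Of 26 cholesterol synthesis genes 1 was lower, with 0 to 2 when single libraries were left out and 0 without library 29. Of 32 urea cycle and amino acid genes 3 were lower, with 0 without library 29 or WT liver 10, 1 without WT liver 8 or HNKO liver 30, 5 without HNKO liver 6, and 8 without HNKO liver 31. Periportal zonation markers had 0 of 16 called, and pericentral markers had 2 of 19 lower. The pericentral count was 4 without WT liver 28 or HNKO liver 6, 5 without HNKO liver 31, and 1 without any of the other 6 livers. Glucose metabolism genes had 5 of 26 higher and 2 lower, with 2 higher without library 29 or WT liver 10 and 3 without WT liver 28. Their lower count was 0 or 1 without WT livers 8, 10, 27, or 28 or HNKO livers 29 or 30. Pkm, the pyruvate kinase of non-hepatocyte and dedifferentiated cells, was at 23.5, 22, 28.5, and 21.5 CPM in WT and 34.8, 48.5, 84, 51.6, and 34.7 CPM in HNKO livers (log2 fold change 1.09 ± 0.23 (SE), adjusted p = 0.00195), and Pfkfb3, an activator of glycolysis, was higher as well (1.36 ± 0.28, adjusted p = 0.00157). Pkm shares 25.39% of its 51-base stretches with other genes.

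Genes with the smallest p-values at day 6 included several outside these lists. Atp11a, a phospholipid flippase, was at 14.5, 16.2, 14, and 14.9 CPM in WT and 37.9, 64.9, 74.9, 39.9, and 41 CPM in HNKO livers (log2 fold change 1.80 ± 0.19 (SE), adjusted p = 4.62e-07). Armcx4 was at 3.69, 3.9, 4.97, and 4.51 CPM in WT and 21.2, 32.5, 35.4, 18.7, and 14.3 CPM in HNKO livers (2.52 ± 0.33, adjusted p = 8.67e-06). Cyb561, a transmembrane electron carrier, was higher as well (2.04 ± 0.26, adjusted p = 8.19e-06), and all 3 genes were without overlap. On the lower side, Mme, the membrane peptidase neprilysin, was at 79.8, 88.8, 83.1, and 75.2 CPM in WT and 44.4, 26, 33.8, 32.6, and 40.5 CPM in HNKO livers (-1.20 ± 0.14, adjusted p = 2.93e-06). Aldh9a1, an aldehyde dehydrogenase of carnitine synthesis, was at 263, 249, 281, and 242 CPM in WT and 195, 153, 141, 165, and 179 CPM in HNKO livers (-0.64 ± 0.10, adjusted p = 8.02e-05). Neither overlapped. Pctp, a phosphatidylcholine transfer protein (-1.05 ± 0.17, adjusted p = 0.000156), Ces1d, a lipid hydrolase (-1.30 ± 0.22, adjusted p = 0.000218), Gsta3, a glutathione transferase (-0.86 ± 0.15, adjusted p = 0.000237), Tymp, thymidine phosphorylase (-0.80 ± 0.14, adjusted p = 0.00029), which shares 40.61% of its stretches with Sco2, Ces1e, a carboxylesterase (-1.10 ± 0.19, adjusted p = 0.000293), and Mpc1, a subunit of the mitochondrial pyruvate carrier (-0.68 ± 0.12, adjusted p = 0.000293), were lower in each HNKO liver than in any WT liver.

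Whether day 6 differed from the other days was tested by setting the genotype difference at day 6 against its mean over days 3, 12, and 21. Only 3 of 20297 genes (0.0148%) passed, with 910 at an unadjusted p under 0.05. For Slfn4 the log2 fold change was 4.03 ± 0.46 at day 6, against 0.89 ± 0.41 (day 3), 1.47 ± 0.40 (day 12), and 1.37 ± 0.45 (day 21). The day 6 effect exceeded the mean of the other days by 2.79 ± 0.51 (adjusted p = 0.0423). For Il1r1 it was 1.29 ± 0.17 at day 6, against 0.12 ± 0.15 (day 3), 0.44 ± 0.15 (day 12), and 0.31 ± 0.17 (day 21), an excess of 1.0 ± 0.19 (adjusted p = 0.0423). For Saa3 it was 4.11 ± 0.53 at day 6, against 0.17 ± 0.45 (day 3), 2.08 ± 0.45 (day 12), and 0.87 ± 0.50 (day 21), an excess of 3.07 ± 0.57 (adjusted p = 0.0423). All 3 had their highest fold change at day 6, which follows in large part from picking genes by this difference. Saa2 (3.36 ± 0.66, adjusted p = 0.0542) and Il17ra (0.6 ± 0.12, adjusted p = 0.0536) fell short of the threshold. The count of 3 became 7 without HNKO liver 6, 3 without liver 7, 1 without WT liver 8, and 0 without any of the other 6 livers, and DESeq2 called 15 genes. It was 0 with the edgeR 4 computation, with robust estimation, and with all 40 libraries.

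**Figure D5:**
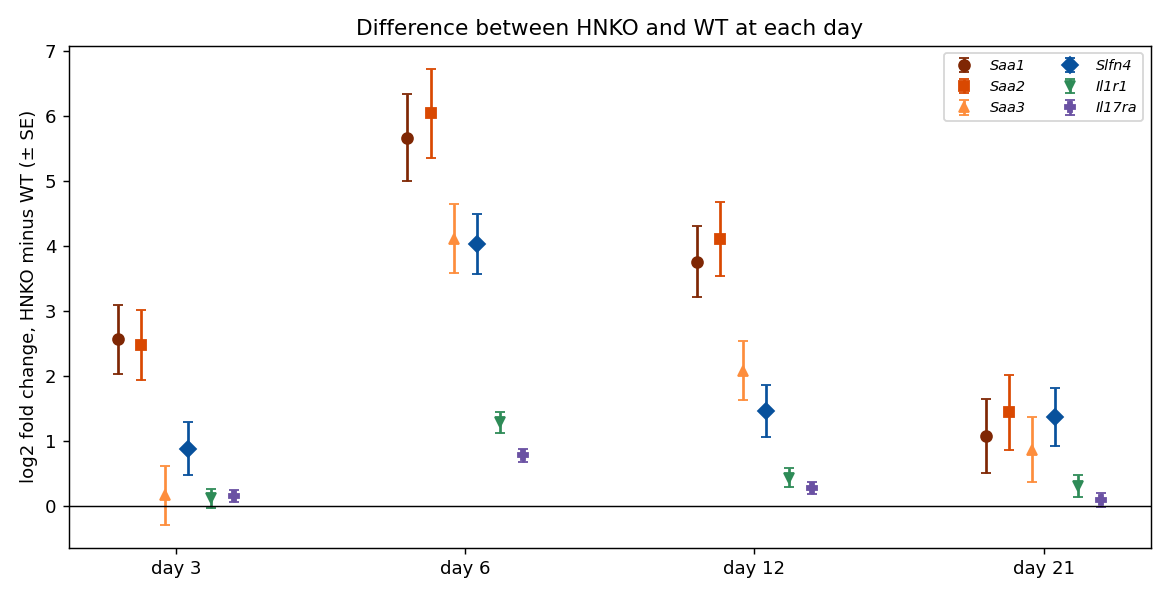
Log2 fold change of HNKO over WT (points) with its SE (bars) at days 3, 6, 12, and 21 for Saa1, Saa2, Saa3, Slfn4, Il1r1, and Il17ra. Day 6 is the highest point for all 6 genes, at 4.03 for Slfn4, 1.29 for Il1r1, and 4.11 for Saa3. All but Saa1 were picked by the smallest p-values of the day 6 difference, so a peak at day 6 follows in large part from that choice.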

How the data were processed

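Liver RNA was depleted of rRNA and sequenced as 51-bp paired-end reads. The authors aligned reads to GRCm38 with STAR 2.7.2b and counted them on GENCODE genes with featureCounts 1.6.4, and the submitters' processing notes also name edgeR 3.26.0. The deposited values are raw counts per gene. Use of strand in counting is not given in the sources used here, so overlapping genes may share reads. Every column was mapped to a sample.

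HNKO libraries 17 and 18 of day 21, labelled as failing quality control, were left out. The other 38 libraries were scaled by TMM and fitted with 8 group means in edgeR 4.0.16 (R 4.3.3, quasi-likelihood test, legacy computation) after filterByExpr (a minimum of 10 counts, 15 in total, proportion 0.7), which kept 20297 of 55487 genes and 99.937% of counts. Adjustment of p-values followed Benjamini and Hochberg across all tested genes (threshold 0.05). The log2 CPM values carry a prior count of 2. Depth was 16151037 to 34720845 counts per day 6 library, and the median SE of a log2 fold change was 0.218. The script was tested on simulated data. Gene positions are from GENCODE M21. DESeq2 1.42.0, other filters, other scaling, other library sets, a label series covariate, and leaving out each library were tried as alternatives.

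The members and the 39 gene lists were chosen with earlier results of these data known. The naming rule took Nampt, the 12 non-overlapping genes per direction of smallest p-value, the 5 most abundant called genes per direction, up to 6 called members per list and direction, the 3 most abundant members of each list, members at 0 counts in a group, and the 5 genes with the smallest p-values in the difference of day 6. It picked 312 genes, of which the text describes 126. That choice was made after values and leave-one-out results were seen, and several genes whose calls were lost when a library was left out were dropped, so the described genes are more stable than the 312. A further 11 genes were named outside the rule after their values were seen: Lcn2, Orm2, Cd14, Socs3, Ccl2, Lyz2, Acta2, Mki67, Cyp4a10, Cyp4a14, and Ppara. Some genes of the rule are not reported here.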

Additional observations from a re-analysis of the deposited data

Results flagged for a closer look

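In the described genes, 19 of 274 groups of 4 or 5 values held a library far from the others of its group, and chance alone flags about 1 in 20 groups. Over all genes of the naming rule the number was 45 of 624. Values here are log2 CPM. HNKO library 29 was far below the other HNKO livers for Ppara (6.76, others 7.74 to 7.79), Eci1 (5.42), Uqcrc1 (7.14), Atp5c1 (6.97), Cox6c (6.47), Nr1i3 (4.98), and Ces1e (4.97), and far above them for Top2a (4.97) and Cd38 (5.20). HNKO library 7 held H19, an imprinted fetal RNA, at 6.25, against -0.66 to 0.19 in the other HNKO livers. H19 was called higher (log2 fold change 4.73 ± 1.54 (SE), adjusted p = 0.0369), but its adjusted p was 0.882 without that liver and 0.0705 to 0.0926 without any single WT liver.

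WT library 10 was far above the other WT livers for Sirt3 (6.44), Uqcrc1 (8.09), and Cyp2b9 (9.84), and below them for Cxcl2 (-3.80) and Prtn3 (-3.80), both of which had 0 counts there. WT library 27 was above for Ccl6 (3.64) and Lyz2 (6.31). WT library 8 was above for Ankrd1 (-0.98) and below for Fosl2 (2.93).

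The genotype effect at day 6 differed from its mean over the other days for Slfn4 by 2.79, for Il1r1 by 1.0, and for Saa3 by 3.07, each with an adjusted p of 0.0423 (edgeR). The number of such genes was 0 with the edgeR 4 computation, with robust estimation, with all 40 libraries, and without any of 6 of the 9 livers.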

How the results depend on the processing

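The count of 2596 called genes was 2594 with RLE size factors, 2569 with robust estimation, 2691 with the edgeR 4 computation, 2917 with DESeq2, 2999 with the label series as a covariate, 1925 without the filter, and 2141 with a stricter filter. It fell to 1321 with all 40 libraries and to 1325 with only the 9 libraries of day 6, and ranged from 1126 to 3027 when each library was left out. The count of genes whose day 6 effect differed from the other days was 3 with RLE size factors, 5 without the filter, 5 with the stricter filter, 6 with the covariate, 15 with DESeq2, 0 with all 40 libraries, 0 with the edgeR 4 computation, 0 with robust estimation, and 0 to 7 when each library was left out. The cause was not tested. The Nampt difference was -0.90 with only the 9 libraries, past no threshold (adjusted p = 0.0841), and -1.07 to -0.64 when each library was left out. Of 223 called genes of the naming rule, Nampt aside, 120 stayed called under every alternative run, and 0 changed sign. Of these 223, 82 were lost without HNKO library 29, 69 with only the 9 libraries, and 51 with all 40. Among the 128 called genes described in the text the number that stayed called was 107, a share raised by the choice of genes to describe. No paired analysis was run. Each library has its own number, and the labels used here do not pair an HNKO mouse with a WT mouse.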

Other observations

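Annexins, S100 proteins, and tubulins, genes of membrane repair and the cytoskeleton, had 12 of 29 members higher and 1 lower, with 10 higher and 0 lower without library 29. The counts of this paragraph stand against 8.42% of all tested genes higher and 4.37% lower. S100a6 was at 1.47, 0.718, 0.731, and 0.927 CPM in WT and 2.73, 6.72, 10.4, 5.52, and 3.63 CPM in HNKO livers (log2 fold change 2.59 ± 0.50 (SE), adjusted p = 0.000871), and Anxa2 at 12.9, 10.8, 17.3, and 16.3 CPM in WT and 21.8, 51.3, 87.4, 46.7, and 28.5 CPM in HNKO livers (1.72 ± 0.36, adjusted p = 0.00158), without overlap. Immediate early genes had 6 of 18 higher and 0 lower, with 2 higher without library 29 or WT liver 8 and 3 without WT livers 10 or 28, among them Ier3 (2.25 ± 0.46, adjusted p = 0.00135) and Fosl2 (1.09 ± 0.20, adjusted p = 0.000562). Regeneration growth factors and YAP and Notch genes had 9 of 27 higher and 1 lower, with 6 higher and 0 lower without library 29 and 4 higher without WT liver 8. Ankrd1, a YAP target, was at 0.434, 0.308, 0.292, and 0.295 CPM in WT and 1.64, 1.09, 9.46, 3.19, and 3.24 CPM in HNKO livers (3.48 ± 0.62, adjusted p = 0.000404).

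Over all tested genes 8.42% were higher and 4.37% lower. Of 32 genes of the integrated stress response and ER chaperones 4 were higher and 1 lower, or 2 higher without any of WT livers 10 or 27 or HNKO livers 7, 29, or 30, with Asns, asparagine synthetase, at 0.781, 0.462, 0.634, and 0.969 CPM in WT and 2.18, 7.88, 6.87, 7.63, and 2.25 CPM in HNKO livers (log2 fold change 2.89 ± 0.67 (SE), adjusted p = 0.00402). Of 33 NRF2 targets and antioxidant genes 5 were higher and 4 lower. The higher count was 3 without library 29 or WT liver 8, and the lower count was 1 without library 29, HNKO liver 7, or WT liver 10 and 2 without HNKO liver 30, and Hmox1, heme oxygenase, was higher (1.07 ± 0.24, adjusted p = 0.00309). Of 21 p53 targets 5 were higher and 0 lower, and 1 without library 29 or WT liver 10 and 3 without WT liver 28. Clock genes had 2 of 20 lower, or 1 without WT livers 8 or 10 or HNKO livers 29 or 30, with Cry1 lower without overlap (-0.93 ± 0.23, adjusted p = 0.00657). Erythroid markers had 1 of 9 higher, and markers of adjoining tissues such as pancreas and fat had 1 of 13 higher, and 0 without library 29 or HNKO liver 7 or without any of the 4 WT livers.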
